A study of Mus musculus with 6 samples.

Results

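The genes described here are 44 mouse genes of TGF-beta and bone morphogenetic protein (BMP) signalling, taken as a list of ligands, receptors, antagonists and early targets and matched by symbol to 57180 gene identifiers. They comprise 3 TGF-beta ligands, 6 BMP ligands, 4 growth and differentiation factors (GDF), 2 activin subunits, 10 type I and type II receptors, 2 co-receptors, 4 latent TGF-beta binding proteins, 8 extracellular antagonists and follistatin relatives, and 5 early targets. Bulk polyadenylated RNA was read in 6 cultures of mouse fibroblasts, from lung, heart (cardiac) and tail tip. One culture of each origin received Ad-GFP, an adenovirus coding for green fluorescent protein, as the control, and another received Ad-Cre, an adenovirus coding for Cre recombinase and labelled as the GATA4 knockout. All 6 cultures are labelled wild type, were grown in medium with 10% fetal bovine serum and were harvested after 48 h. No label gives the strain, the age, the number of animals or an allele that Cre could cut, so the virus groups are described by their labels. Each combination of origin and virus is 1 library.

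Ligands of this family bind pairs of type I and type II receptor kinases at the cell surface, which phosphorylate SMAD proteins that enter the nucleus. TGF-beta and activins act mainly through SMAD2 and SMAD3, and BMPs through SMAD1, SMAD5 and SMAD9. TGF-beta is secreted in a latent form held in the matrix by latent TGF-beta binding proteins, and BMPs and activins are held back by secreted antagonists. In fibroblasts TGF-beta is best known for raising matrix production and contractile proteins, while the Id genes and Smad6 are typical early targets of BMP signalling.

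Levels are given as CPM, read counts scaled by library size with TMM factors, and can be compared between libraries but not between genes. Between genes, CPM per kilobase of exon is used. Total counts were between 26170316 and 33779069 per library, and 0 reads allow up to 3 counts, or 0.0906 to 0.117 CPM. Gata4 was not lower with Ad-Cre: it stood at 147 and 149 CPM in cardiac cells (control first), 14.7 and 19.2 CPM in lung cells, and 1 and 2 reads in tail tip cells. All 7 fibroblast markers (among them Col1a1, Pdgfra and Vim) exceeded 1 CPM in every library. Macrophage markers differed between the origins, with 8 markers summing to 18.0 and 14.5 CPM in lung, 217 and 136 CPM in cardiac and 1289 and 1064 CPM in tail tip libraries. In bulk RNA, fewer cells of a type and less RNA per cell cannot be told apart.

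Most of these genes differed between fibroblasts of different origin, and lung fibroblasts had the lowest levels of many ligands and antagonists. Of the 44 genes, 41 had enough reads to be tested. Bmp3, Bmp7 and Gdf5 did not and stayed at or under 0.393 CPM in every library, apart from Bmp7 in the cardiac Ad-Cre library. Against lung, cardiac fibroblasts were higher for 19 members and lower for 5 (24 of 41 passed, against 38.4% of all 18143 genes tested, 20.8% higher and 17.6% lower). Against tail tip, cardiac fibroblasts were higher for 10 and lower for 15 (background 33.5%, with 15.5% higher and 18.0% lower). Lung fibroblasts were higher than tail tip for 5 and lower for 26 (background 50.6%, with 22.3% higher and 28.2% lower). The 26 include Gdf6, with 0 reads in lung and 12 and 8 in tail tip, which passed the filter through its cardiac reads. They also include Bmp5, with 0 reads in lung and 22 and 16 in tail tip, a call that passed in 9 of 13 alternative settings. Genes were called at an adjusted p under 0.05 in edgeR's quasi-likelihood test, with origin and virus in 1 model over the 6 libraries. The median log2 difference over the 41 members was 0.77 for cardiac against lung, -0.10 for cardiac against tail tip and -0.87 for lung against tail tip, beside medians of -0.01, -0.06 and -0.06 over all genes tested. A total of 16 members passed in all 3 comparisons (background 13.0%). All but 7 passed in at least 1 (background 62.5%), the 7 being Acvrl1, Bmpr1b, Bmpr2, Fstl3, Gdf11, Id1 and Id3, of which each except Bmpr1b passed somewhere under 13 alternative settings. These comparisons share libraries, and each origin rests on 1 library of either virus. Whether the libraries came from separate animals is not given. With 1 library per group, the p-values rest on how unevenly the virus difference ran across the origins, with information shared between genes. They do not measure the spread between replicate cultures.

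**Figure D1:**
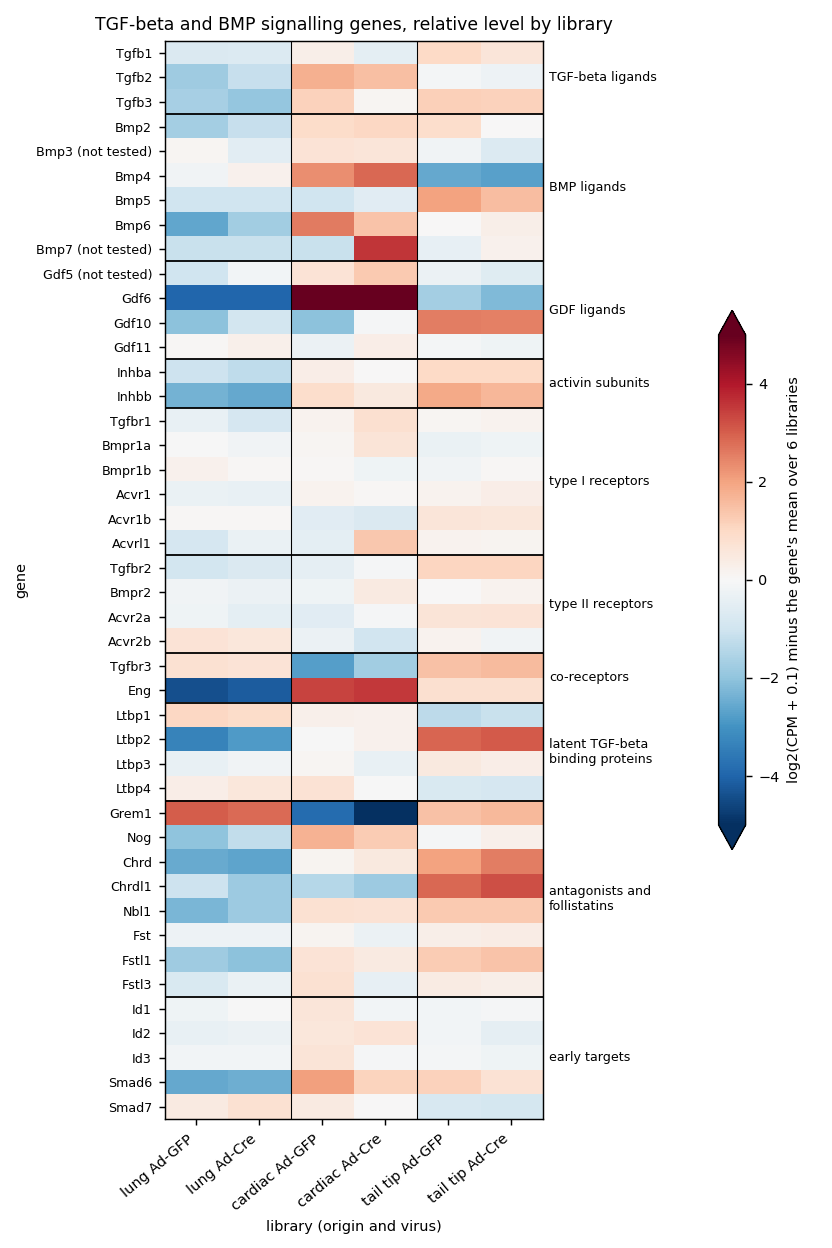
Colour gives log2(CPM + 0.1) of each gene minus its mean over the 6 libraries, with genes in rows by role and libraries in columns by origin and virus. Gdf6, Eng, Bmp4 and Bmp6 are red in both cardiac columns, Bmp7 only in that of Ad-Cre, Grem1 is blue there, and Inhbb, Nbl1, Fstl1 and Smad6 are blue in the lung columns. Colours end at the arrows of the scale.

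Without overlap, both tail tip libraries stood above the other 4 for 18 of the 41 members (background 28.3%), both cardiac libraries for 11 (background 13.2%) and both lung libraries for 5 (background 26.1%). Both lung libraries stood below the other 4 for 18 members (background 27.3%), both tail tip libraries for 5 (22.3%) and both cardiac libraries for 4 (14.1%). The 5 with lung on top were Bmpr1b, Acvr2b, Ltbp1, Grem1 and Smad7. Of these, Ltbp1 and Grem1 passed against both other origins, Acvr2b against cardiac, Smad7 against tail tip and Bmpr1b against neither.

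The 3 TGF-beta ligand genes were all lower in lung than in tail tip fibroblasts, and their mix differed by origin. Tgfb1, the ligand most often linked to fibrosis, was at 43.4 and 43.6 CPM in lung (Ad-GFP, then Ad-Cre), 86.9 and 50.7 CPM in cardiac and 140.4 and 107 CPM in tail tip libraries. The 3 origins did not overlap for Tgfb1, and the cardiac libraries lay between the others. The tail tip level was above lung (log2 difference of lung minus tail tip -1.48, SE 0.21, adjusted p = 0.000941) and above cardiac (cardiac minus tail tip -0.87, SE 0.20, adjusted p = 0.0161), while cardiac against lung did not pass (0.61, SE 0.20, adjusted p = 0.0513), though it passed in 7 of 13 alternative settings, DESeq2 and limma-voom among them. The summed macrophage markers given above followed the same order of origins, and their part in the Tgfb1 levels was not tested. Tgfb2, a ligand needed in heart and valve formation, was at 3.40 and 5.30 CPM in lung, 41.5 and 34.5 CPM in cardiac and 11.3 and 9.94 CPM in tail tip. It was highest in cardiac fibroblasts, by 3.13 (SE 0.28, adjusted p = 0.000228) over lung and 1.84 (SE 0.26, adjusted p = 0.00182) over tail tip on the log2 scale.

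Tgfb3, a ligand of palate fusion and tendon, was at 13.1 and 10.8 CPM in lung, 92.5 and 45.1 CPM in cardiac and 95.7 and 93.4 CPM in tail tip libraries. Lung was below both, by -3.01 against tail tip (SE 0.26, adjusted p = 0.00011) and with cardiac 2.47 above lung (SE 0.26, adjusted p = 0.000502). Per kilobase of exon, Tgfb1 made up 65.9% and 67.9% of the RNA of the 3 ligands in lung, 33.3% and 34.3% in cardiac and 47.9% and 42% in tail tip libraries. Tgfb2 made up 13.8% and 20.3% in cardiac and between 3.35% and 7.18% elsewhere. Tgfb3 was the largest share in all 4 cardiac and tail tip libraries, from 45.4% to 54.6%.

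Among the BMP ligand genes, Bmp4 and Bmp6 were highest in cardiac fibroblasts and Bmp4 was lowest in tail tip fibroblasts. Bmp4, a ligand of mesoderm and limb patterning, was at 3.12 and 4.09 CPM in lung, 17.9 and 26.4 CPM in cardiac and 0.503 and 0.453 CPM (16 and 15 reads) in tail tip. No origins overlapped, and cardiac exceeded tail tip by 5.50 (SE 0.32, adjusted p = 4.65e-05) and lung by 2.61 (SE 0.26, adjusted p = 0.000415) on the log2 scale. Lung exceeded tail tip by 2.89 (SE 0.31, adjusted p = 0.000287). Bmp6, known for its control of hepcidin and iron, was at 0.240 and 0.507 CPM in lung, 12.4 and 5.37 CPM in cardiac and 1.98 and 2.42 CPM in tail tip. It passed in all 3 comparisons, cardiac being 4.54 above lung (SE 0.62, adjusted p = 0.00158).

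The other BMP ligand genes were low. Bmp2, close in sequence to Bmp4, had 7 and 10 reads in lung, 64 and 66 in cardiac and 60 and 33 in tail tip libraries, and lung was below cardiac (adjusted p = 0.0151) and tail tip (adjusted p = 0.0263). Bmp5 had 22 and 16 reads in tail tip, 1 read in the cardiac Ad-Cre library and 0 reads in the other 3 libraries. The tail tip level of Bmp5 was 10.7-fold above a floor of 3 counts over both lung libraries. Bmp3, which opposes other BMPs, had 2 to 10 reads in a library. Bmp7, a ligand of kidney and epithelial development, had 76 reads in the cardiac Ad-Cre library and at most 5 in any other.

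Gdf6 was read almost wholly in cardiac fibroblasts. This ligand of joint and skeletal patterning was at 108 and 82.7 CPM in cardiac (3519 and 2525 reads), 0.378 and 0.242 CPM in tail tip (12 and 8 reads) and 0 reads in both lung libraries. Cardiac fibroblasts were above tail tip by 8.26 on the log2 scale (SE 0.26, adjusted p = 2.31e-05). They were 1750-fold above a floor of 3 counts over both lung libraries. Gdf10, a relative of Bmp3, was read mainly in tail tip (73 and 74 reads), with 0 and 3 reads in lung and 0 and 9 in cardiac libraries. Gdf11, a close relative of myostatin, overlapped between cardiac and the other origins, with 26.9 to 41.3 CPM in the 6 libraries and no comparison passed. Gdf5 had at most 12 reads in a library.

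The activin subunit genes were graded from lung over cardiac to tail tip. Inhba, which codes for the subunit of activin A, was at 532 and 453 CPM in lung, 1383 and 1125 CPM in cardiac and 2179 and 2193 CPM in tail tip. Inhbb, the subunit of activin B, was at 6.04 and 5.22 CPM in lung, 57.3 and 43.9 CPM in cardiac and 117 and 98.5 CPM in tail tip. For both genes no origins overlapped and all 3 comparisons passed. Lung minus tail tip was -2.16 for Inhba (SE 0.16, adjusted p = 5.46e-05) and -4.26 for Inhbb (SE 0.17, adjusted p = 6.25e-06). Per kilobase, Inhba was the most abundant ligand gene in each library, with 70.8 to 343 CPM per kilobase, and held 92.5% to 98.3% of the RNA of the pair.

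**Figure D2:**
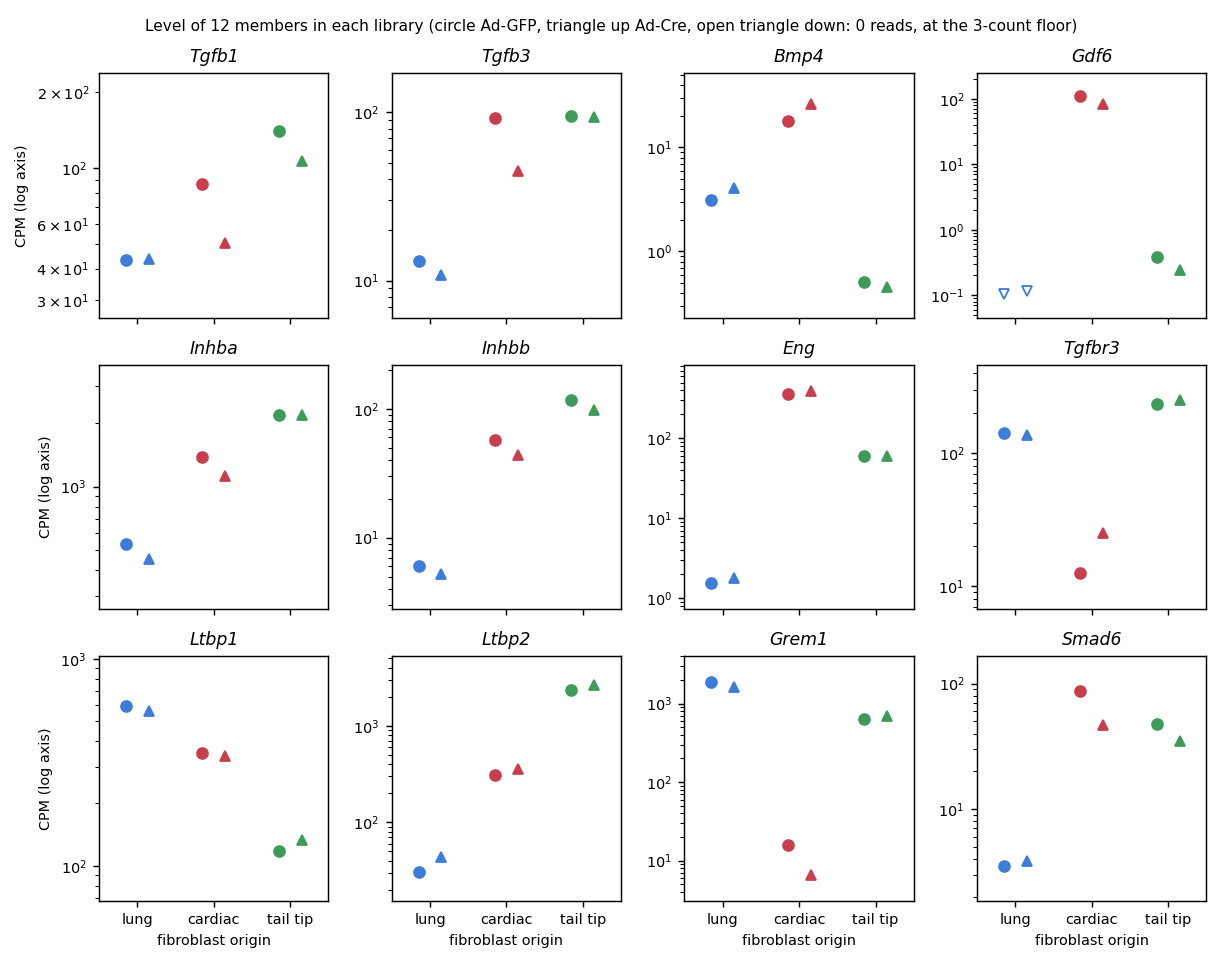
Each panel gives the CPM of 1 gene on a log axis for the 6 libraries, by origin, with circles for Ad-GFP and upright triangles for Ad-Cre. Open downward triangles mark 0 reads at the level of 3 counts, which occurs for Gdf6 in lung. Eng is at 1.54 and 1.79 CPM in lung and 360.3 and 396 CPM in cardiac cells, and Grem1 at 1897 and 1640.1 CPM in lung and 15.8 and 6.58 CPM in cardiac cells.

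Of the 10 type I and type II receptor genes, 5 passed in cardiac against lung, 4 in cardiac against tail tip and 5 in lung against tail tip, beside 38.4%, 33.5% and 50.6% of all genes tested. Tgfbr2, the type II receptor that binds TGF-beta, was at 67.3 and 77.2 CPM in lung, 91.5 and 121 CPM in cardiac and 266 and 265 CPM in tail tip. Tail tip was above cardiac (cardiac minus tail tip -1.34, SE 0.16, adjusted p = 0.000916) and lung (lung minus tail tip -1.89, SE 0.16, adjusted p = 0.000101). Tgfbr1, its type I partner, was at 33.0 and 24.1 CPM in lung, 48.7 and 74.6 CPM in cardiac and 46.2 and 48.1 CPM in tail tip, and lung was below both others (adjusted p = 0.0137 and 0.0471).

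The activin receptors followed no single order. Acvr1b, the type I activin receptor, was lowest in cardiac libraries (13.2 and 11.9 CPM), between in lung (20.3 and 20.6 CPM) and highest in tail tip (29.9 and 28.9 CPM), and passed in all 3 comparisons. Acvr2a, a type II receptor for activins and BMPs, was at 36.5 and 37.9 CPM in tail tip and between 15.7 and 22.7 CPM in the other 4 libraries, where lung and cardiac overlapped. Acvr2b, its relative, was low, at 1.08 to 3.54 CPM, and was lower in cardiac than in lung (adjusted p = 0.0466). That call passed in 7 of 13 alternative settings.

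Few comparisons of the BMP receptors passed. Bmpr1b, at 19.2 to 26.3 CPM, and Bmpr2, at 119.8 to 203 CPM, passed in none of the comparisons. Bmpr1a was higher in cardiac (114 and 164 CPM) than in tail tip libraries (83.4 and 91.1 CPM, adjusted p = 0.0324). Acvr1, a type I receptor for BMPs and activins, was lower in lung, at 48.9 and 47.5 CPM, than in cardiac (adjusted p = 0.0462) and tail tip (adjusted p = 0.0124), which had 63.6 to 77.7 CPM. The Acvr1 call against cardiac passed in 6 of 13 alternative settings, and that against tail tip in 10. Acvrl1, a type I receptor best known from endothelial cells, did not pass in any comparison and had a wide spread in the cardiac cultures, at 20.6 and 74.4 CPM. It passed in 6 of 13 alternative settings for cardiac against lung and in 6 of 13 for lung against tail tip.

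The 2 co-receptor genes had opposite patterns in cardiac fibroblasts. Eng codes for endoglin, a co-receptor for TGF-beta and BMP ligands known from endothelium and stromal cells. It had 45 and 46 reads in lung (1.54 and 1.79 CPM), against 360.3 and 396 CPM in cardiac and 60.3 and 59.5 CPM in tail tip. Cardiac exceeded lung by 7.82 (SE 0.20, adjusted p = 6.97e-06) and tail tip by 2.66 (SE 0.15, adjusted p = 4.3e-05) on the log2 scale, and lung was below tail tip by -5.17 (SE 0.18, adjusted p = 4.73e-06). The 6 endothelial markers summed to 7.28 to 19.9 CPM in the libraries. Pecam1 did not exceed 2.58 CPM, Cdh5 was highest in lung (5.49 and 6.86 CPM) and Kdr in tail tip (18.3 and 16.6 CPM), and the part of such cells in the Eng levels was not tested. Tgfbr3 codes for betaglycan, which presents TGF-beta2 and inhibin to their receptors. It was at 142 and 136 CPM in lung and 234 and 249 CPM in tail tip, but 12.4 and 24.9 CPM in cardiac, lower there by -2.95 against lung (SE 0.28, adjusted p = 0.000294) and -3.74 against tail tip (SE 0.28, adjusted p = 0.000117).

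The sequences before the start sites of Eng, Smad6 and Grem1 are shown because these are the co-receptor, early target and antagonist genes with the widest differences between origins: Eng and Smad6 are low in lung, and Grem1 is high there and low in cardiac cells. Each is the 250 bases upstream of the RefSeq start in build GRCm38.p6, an earlier build than that of the counts, written 5′ to 3′ along the gene. Capitals mark GTCTG or its other strand CAGAC, a short SMAD-binding motif, and GGCGCC (the same on either strand), the GC-rich element to which BMP-activated SMADs can bind.
Eng (chr2:32646345-32646594, plus strand): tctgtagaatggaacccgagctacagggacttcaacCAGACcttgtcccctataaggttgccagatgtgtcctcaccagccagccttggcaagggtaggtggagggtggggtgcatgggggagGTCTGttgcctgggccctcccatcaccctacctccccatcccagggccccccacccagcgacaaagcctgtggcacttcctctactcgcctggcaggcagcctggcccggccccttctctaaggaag
Smad6 (chr9:64022060-64022309, minus strand): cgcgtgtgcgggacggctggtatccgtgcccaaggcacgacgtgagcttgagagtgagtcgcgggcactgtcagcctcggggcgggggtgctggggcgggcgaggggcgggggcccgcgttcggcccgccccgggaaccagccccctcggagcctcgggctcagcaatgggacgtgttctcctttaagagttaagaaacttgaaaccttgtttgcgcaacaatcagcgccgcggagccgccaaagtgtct
Grem1 (chr2:113758649-113758898, minus strand): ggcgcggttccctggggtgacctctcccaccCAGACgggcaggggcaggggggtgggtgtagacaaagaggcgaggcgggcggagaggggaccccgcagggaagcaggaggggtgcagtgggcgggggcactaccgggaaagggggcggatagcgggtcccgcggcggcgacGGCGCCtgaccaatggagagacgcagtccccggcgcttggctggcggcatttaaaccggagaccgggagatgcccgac
The Eng sequence held 2 matches to the short motif, that of Smad6 held 0 matches to either, and that of Grem1 held 1 of each. A match to GTCTG or CAGAC was in 42.2% of all 32851 RefSeq promoters of that length and in 18 of 37 promoters of the members, and one to GGCGCC in 9.59% of all and 9 of 37. Of the 44 members 31 had an entry. The motifs do not overlap each other here, and a match is a description of letters only.

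The latent TGF-beta binding proteins switched rank between origins. Ltbp1, which holds latent TGF-beta in the matrix, was at 594 and 559 CPM in lung, 349 and 339 CPM in cardiac and 118 and 134 CPM in tail tip. Ltbp2, which binds elastic fibres but not latent TGF-beta, ran the other way, from 30.9 and 43.9 CPM in lung over 306 and 357 CPM in cardiac to 2319 and 2631 CPM in tail tip. Neither gene overlapped between origins and both passed in all 3 comparisons. Lung minus tail tip was 2.20 for Ltbp1 (SE 0.15, adjusted p = 3.89e-05) and -6.07 for Ltbp2 (SE 0.19, adjusted p = 3.56e-06). Ltbp4, another elastic fibre protein, was lower in tail tip (26.8 and 25.4 CPM) than in lung (57.9 and 67.1 CPM, adjusted p = 0.00387) and cardiac (75.8 and 45.0 CPM, adjusted p = 0.00908). Ltbp3, at 149.7 to 271 CPM, was lower in lung than in tail tip (adjusted p = 0.0187), and its cardiac against tail tip comparison, not called here, passed in 9 of 13 alternative settings. Per kilobase of exon, Ltbp1 held 65.5% and 60.0% of the RNA of the 4 genes in lung and 3.35% and 3.42% in tail tip, where Ltbp2 held 86.3% and 88.0%.

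**Figure D3:**
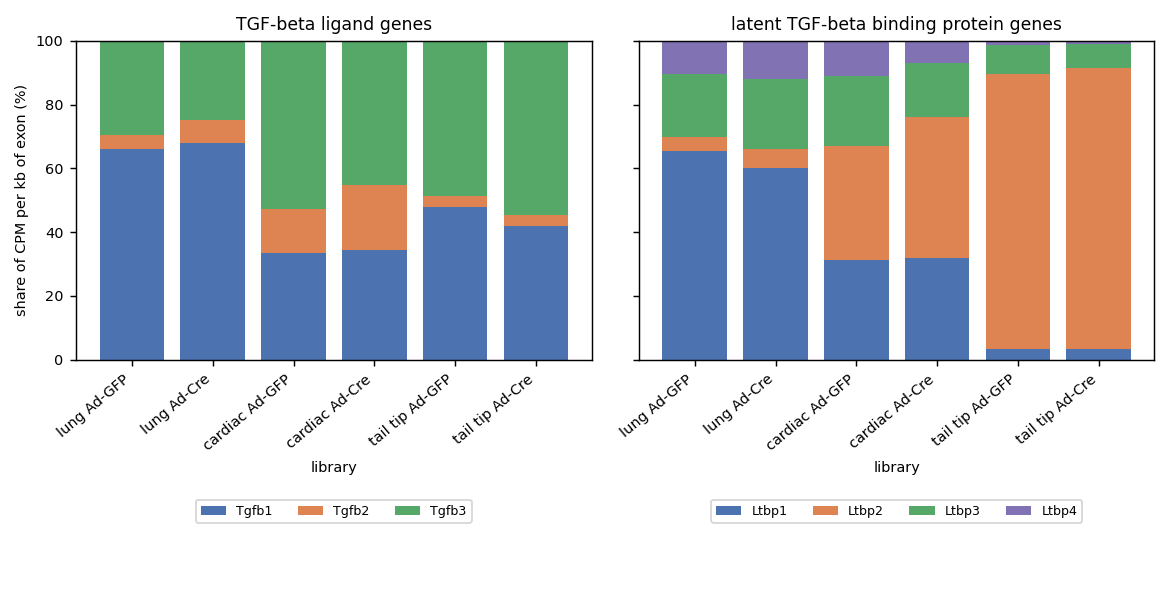
Stacked bars give, for each library, the percentage of CPM per kilobase of exon within the 3 TGF-beta ligand genes (left) and the 4 latent TGF-beta binding protein genes (right). Ltbp2 rises from 4.45% and 6.15% of its group in lung libraries to 86.3% and 88.0% in tail tip libraries, and Tgfb1 is the largest ligand share in lung alone, at 65.9% and 67.9%.

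Among the antagonists, Grem1 stood apart. It codes for gremlin, a secreted inhibitor that binds BMP2, BMP4 and BMP7. It was at 1897 and 1640.1 CPM in lung (55264 and 42071 reads), 635 and 703 CPM in tail tip and 15.8 and 6.58 CPM in cardiac (514 and 201 reads). Cardiac was lower by -7.36 against lung (SE 0.40, adjusted p = 3.15e-05) and -5.99 against tail tip (SE 0.37, adjusted p = 5.87e-05). Lung exceeded tail tip by 1.38 (SE 0.30, adjusted p = 0.00753), a call that was lost when either lung library was left out (adjusted p up to 0.174). Per kilobase, Grem1 held 87.9% and 87.2% of the RNA of the 8 antagonist and follistatin genes in lung and 1.14% and 0.567% in cardiac libraries. Cardiac fibroblasts thus had the highest Bmp4 and the lowest Grem1 of the 3 origins.

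The remaining BMP antagonists were lowest in lung, apart from Chrdl1. Nbl1, a gremlin relative, was at 11.6 and 16.2 CPM in lung, 96.5 and 93.4 CPM in cardiac and 139 and 141 CPM in tail tip, and passed in all 3 comparisons. Chrd, the gene of chordin, had 4 and 3 reads in lung, 46 and 55 in cardiac and 171 and 263 in tail tip. Nog, the gene of noggin, had 2 and 5 reads in lung, 72 and 48 in cardiac and 18 and 24 in tail tip, with lung below cardiac (adjusted p = 0.0077) and tail tip (adjusted p = 0.0415). The Nog call against tail tip passed in 8 of 13 alternative settings. Chrdl1, a chordin relative, was read almost wholly in tail tip (78 and 104 reads, against 2 or fewer in each other library).

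The follistatin genes split. Fst, the activin antagonist follistatin, was at 23.1 to 36.6 CPM and differed only between lung and tail tip (lung minus tail tip -0.60, SE 0.19, adjusted p = 0.0328). Fstl3, its relative, was at 10.3 to 30.1 CPM and passed in no comparison, but lung against tail tip passed in 7 of 13 alternative settings. Fstl1, a secreted glycoprotein that despite its name is not an established activin inhibitor, was at 234 and 193 CPM in lung, 1292 and 1085 CPM in cardiac and 1931 and 2139.8 CPM in tail tip. Lung Fstl1 was lower than tail tip by -3.26 (SE 0.18, adjusted p = 1.67e-05), and cardiac exceeded lung by 2.48 (SE 0.18, adjusted p = 9.43e-05).

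Early targets did not share 1 order of origins. Smad6, an inhibitory SMAD induced by BMPs, was at 3.5 and 3.82 CPM in lung, 88.1 and 46.6 CPM in cardiac and 47.5 and 35.1 CPM in tail tip. Lung was below cardiac by 4.14 (SE 0.28, adjusted p = 7.06e-05) and below tail tip by 3.47 (lung minus tail tip -3.47, SE 0.27, adjusted p = 6.47e-05), while cardiac and tail tip overlapped and did not pass (adjusted p = 0.065), though this passed in 7 of 13 alternative settings. Smad7, the inhibitory SMAD that limits TGF-beta signalling, was at 156 and 197 CPM in lung, 156 and 118 CPM in cardiac and 65.8 and 62.0 CPM in tail tip. Lung Smad7 exceeded tail tip by 1.47 (SE 0.20, adjusted p = 0.000832) and cardiac exceeded tail tip by 1.10 (SE 0.20, adjusted p = 0.00576). Cardiac against lung did not pass for Smad7 (adjusted p = 0.173).

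Of the Id genes, which code for inhibitors of basic helix-loop-helix factors, Id2 alone passed. Id1 was at 66.4 and 75.2 CPM in lung, 115 and 69.1 CPM in cardiac and 68.9 and 73.5 CPM in tail tip, and Id3 at 122 and 119.8, 210.1 and 127, and 122 and 115 CPM in the same order. Neither passed in any comparison. Id2 was higher in cardiac libraries (84.6 and 91.6 CPM) than in lung (45.0 and 46.6 CPM, adjusted p = 0.00486) and tail tip (53.1 and 42.6 CPM, adjusted p = 0.00708). Lung fibroblasts thus combined the lowest Smad6 with Id1, Id2 and Id3 levels that overlapped those of tail tip (adjusted p from 0.793 to 0.984).

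**Figure D4:**
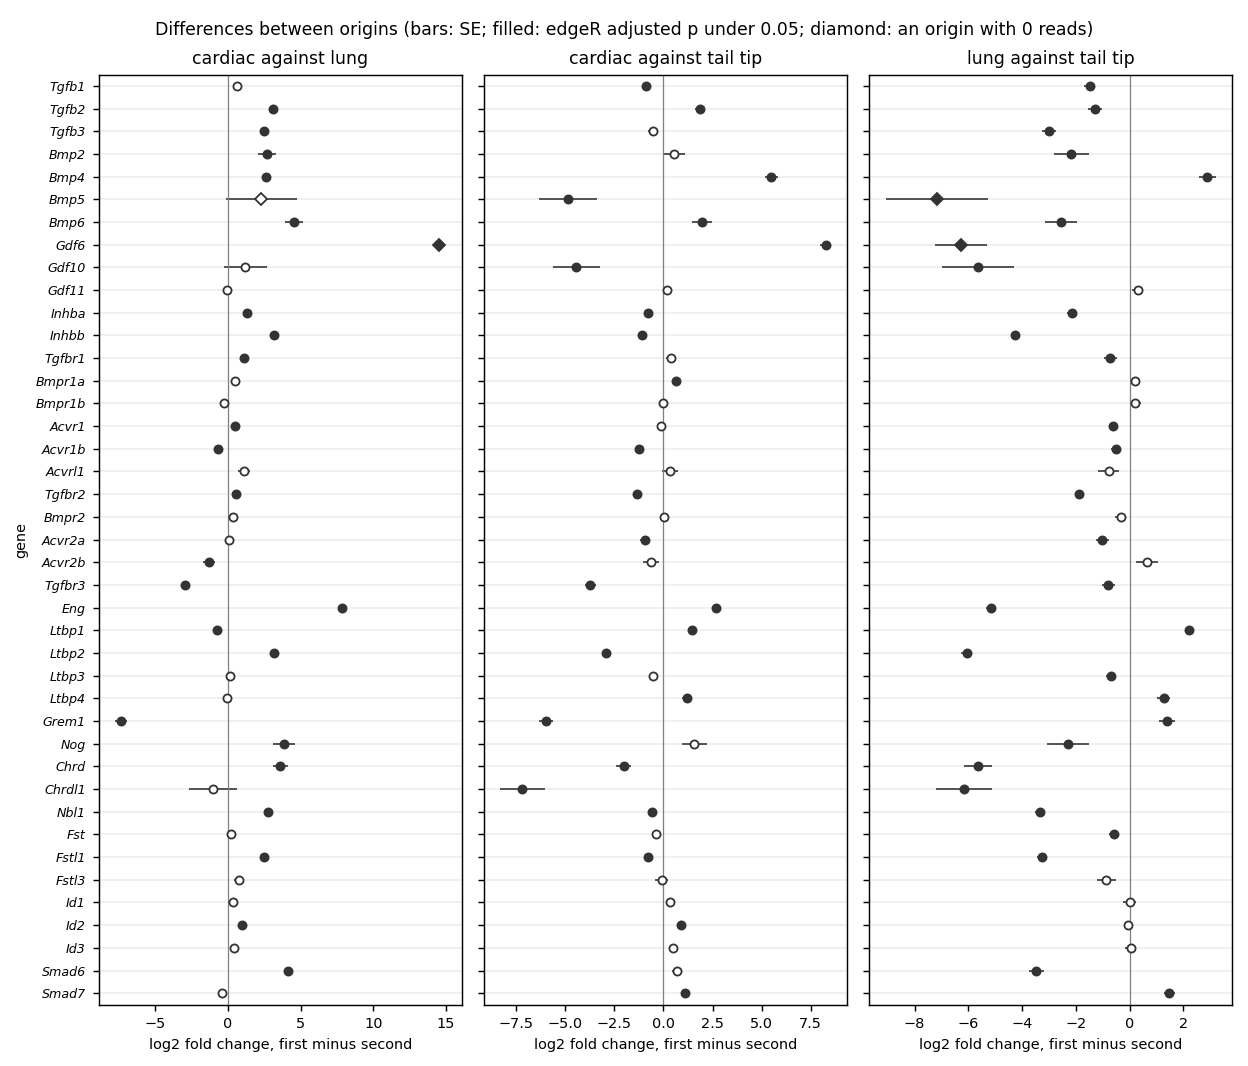
Points give the log2 fold change of 41 genes in each comparison of origins, first minus second, with bars of 1 SE. Filled points passed at an adjusted p under 0.05, and diamonds mark genes with 0 reads in both libraries of an origin, whose fitted value is no bound. In the comparison of lung with tail tip 26 filled points lie left of 0 and 5 lie right.

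A further list of 92 pathway genes was counted the same way. It holds SMADs, other ligands, receptors and antagonists, genes of ligand processing, regulators and common target genes. Of its 73 tested genes, cardiac fibroblasts were higher than lung for 34 and lower for 9, higher than tail tip for 22 and lower for 22, and lung was higher than tail tip for 13 and lower for 34. Over all genes tested these shares were 20.8% and 17.6%, 15.5% and 18.0%, and 22.3% and 28.2% in the same order. The median log2 differences were 0.61, 0.17 and -0.63. Of the 6 receptor-activated and common SMADs, Smad2 and Smad4 were higher in lung than in both other origins and Smad9 was lower there, and Smad1 was higher in cardiac than in tail tip.

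Most genes that process latent ligands, and most typical TGF-beta targets, were lower in lung than in tail tip. Of 12 processing genes 9 were higher in cardiac than in lung and 0 lower, and 8 were lower in lung than in tail tip and 2 higher. Of all genes tested, 20.8% were higher in cardiac than in lung and 17.6% lower, and 28.2% were lower in lung than in tail tip and 22.3% higher. Pcsk6, a proprotein convertase, was at 0.0343 and 0.0780 CPM in lung and 30.3 and 15.6 CPM in cardiac libraries. Nrros, a binding partner of latent TGF-beta on macrophages and microglia, had 0 reads in lung, 8.70 and 4.13 CPM in cardiac and 27.7 and 21.8 CPM in tail tip, in the order of the macrophage markers, whose part was not tested. Of 16 TGF-beta target genes 13 were lower in lung than in tail tip and 0 higher, and 9 were higher in cardiac than in lung and 2 lower. Postn, the gene of periostin, was at 4.6 and 5.07 CPM in lung, 981 and 639 CPM in cardiac and 248 and 158 CPM in tail tip.

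Tgfbi, a TGF-beta-induced matrix gene, was at 445 and 345 CPM in tail tip and between 11.8 and 24.9 CPM elsewhere. Crim1, a BMP-binding membrane protein, was at 119 and 128 CPM in lung, 360.4 and 457 CPM in cardiac and 32.6 and 38.5 CPM in tail tip. Of 9 genes often read as BMP targets, 5 were lower in cardiac than in tail tip (18.0% of all genes tested were lower and 15.5% higher), among them Alpl (1.05 and 0.393 against 28.9 and 26.3 CPM), and 2 were higher, among them Tnfrsf11b (54.7 and 30.8 against 3.21 and 3.32 CPM). Itgb6, an integrin subunit that can release latent TGF-beta, was low throughout and lowest in tail tip (7 and 3 reads). Lung libraries had 33 and 30 reads and cardiac libraries 38 and 92, with cardiac 3.64 and lung 2.84 above tail tip on the log2 scale.

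Over the 3 origins, no member passed between Ad-Cre and Ad-GFP in edgeR (0 of 41, against 0% of all genes tested), and 2 had an unadjusted p under 0.05 (background 2.02%). These were Acvrl1, with a log2 difference of Ad-Cre minus Ad-GFP of 0.79 (SE 0.33), and Ltbp2, with 0.30 (SE 0.13), and edgeR gave both an adjusted p of 1. Without the cardiac Ad-GFP or the cardiac Ad-Cre library the difference of Acvrl1 was 0.25 or 0.23. DESeq2 and limma-voom also called 0 members. Acvrl1 passed without a filter on low counts and when either tail tip library was left out, with 1 member called each time. A ratio with the same direction in all 3 origins was seen for 5 of 41 members (background 21.0%). Whether the origins respond differently cannot be tested, since each origin has 1 library per virus.

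Within an origin the members were furthest apart in cardiac fibroblasts, as were all genes tested. On the log2 ratio with a prior count of 2, 6 of 41 members were at least 2-fold apart in the cardiac pair (background 20.3%, with 11.3% higher and 9.07% lower), 2 in the lung pair (background 7.69%) and 0 in the tail tip pair (background 3.10%). The 2 in lung, Gdf10 and Chrdl1, rest on at most 3 reads in a library. The median absolute log2 ratio of the members was 0.53 in cardiac, 0.21 in lung and 0.13 in tail tip fibroblasts, beside 0.41, 0.22 and 0.14 over all genes tested. There is no replicate behind these ratios, and their 95% intervals cover counting error only.

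In the cardiac pair the 3 TGF-beta ligand genes and 4 of 5 early targets had lower values with Ad-Cre. So did the 2 activin subunit genes, 7 of 8 antagonist and follistatin genes and 3 of 4 latent TGF-beta binding protein genes. Higher values were seen for 3 of 4 tested BMP ligand genes, 2 of 3 tested GDF genes and the 2 co-receptor genes. Among these, Chrdl1 (lower) and Bmp5 (higher) rest on 1 read in the pair. Of the 10 type I and type II receptor genes, 6 had higher values and 4 lower. The median log2 ratio in this pair was -0.25 over the members and 0 over all genes tested. Acvrl1 had a ratio of 3.62 (95% interval 3.32 to 3.95, 669 and 2272 reads). The receptor genes Bmpr2 (1.58), Tgfbr1 (1.53), Acvr2a (1.45), Bmpr1a (1.45) and Tgfbr2 (1.33) were also above 1, while Acvr1, Acvr1b, Bmpr1b and Acvr2b were below. Tgfbr3 had a ratio of 2.0 (1.77 to 2.27) and lay just inside 2-fold on the log2 scale with the prior count.

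The TGF-beta ligands and 4 of the 5 early targets had ratios below 1. Tgfb1 had a ratio of 0.583 (0.548 to 0.621), Tgfb3 0.487 (0.457 to 0.520) and Tgfb2 0.831 (0.766 to 0.901). Smad6 was at 0.529 (0.496 to 0.564), Id1 at 0.599 (0.568 to 0.632), Id3 at 0.603 (0.580 to 0.628) and Smad7 at 0.759, while Id2 was at 1.08 (1.03 to 1.14). The same ratios in the tail tip pair were 0.763 for Tgfb1, 0.740 for Smad6, 1.07 for Id1 and 0.936 for Id3. In the lung pair they were 1.01 for Tgfb1, 1.09 for Smad6, 1.13 for Id1 and 0.984 for Id3. Bmp6 (0.431), Grem1 (0.416) and Fstl3 (0.441) were more than 2-fold lower in the cardiac Ad-Cre library, while Bmp4 had a ratio of 1.47 (1.32 to 1.64), Bmp2 of 1.10 and Gdf11 of 1.54.

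Bmp7 had 0 reads in the cardiac control and 76 in the cardiac Ad-Cre library. This was 27-fold above a floor of 3 reads, and the 95% interval of the ratio started at 21.4. Markers of other cells differed in the same pair. The 6 epithelial markers summed to 14.1 CPM in the cardiac control and 119 CPM with Ad-Cre, the 5 mesothelial markers to 56.6 and 116 CPM, the 8 macrophage markers to 217 and 136 CPM and the 7 fibroblast markers to 21960 and 14380 CPM. Of the mesothelial markers Msln, Upk1b and Upk3b were higher with Ad-Cre, while Lrrn4 (32.2 and 9.43 CPM) and Wt1 (9.44 and 8.84 CPM) were lower. Among the fibroblast markers Col1a1, Col1a2, Vim, Thy1 and Dcn were lower with Ad-Cre, while Pdgfra (268 and 408 CPM) and Pdgfrb (263 and 416 CPM) were higher. The 4 markers of cardiac origin summed to 870 and 579 CPM, with Gata4 nearly level and Tbx20, Tcf21 and Hand2 lower. The 3 tail markers Hoxa13, Hoxc13 and Hoxd13 summed to 0.154 and 4.06 CPM, each higher with Ad-Cre. The 3 lung markers summed to 5.32 and 7.27 CPM, with Foxf1 and Tbx4 higher and Tbx5 lower. The part of these marker differences in the ratios of the cardiac pair was not tested. The epithelial markers summed to 2.025 and 5.69 CPM in the lung pair and to 4.62 and 5.50 CPM in the tail tip pair.

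**Figure D5:**
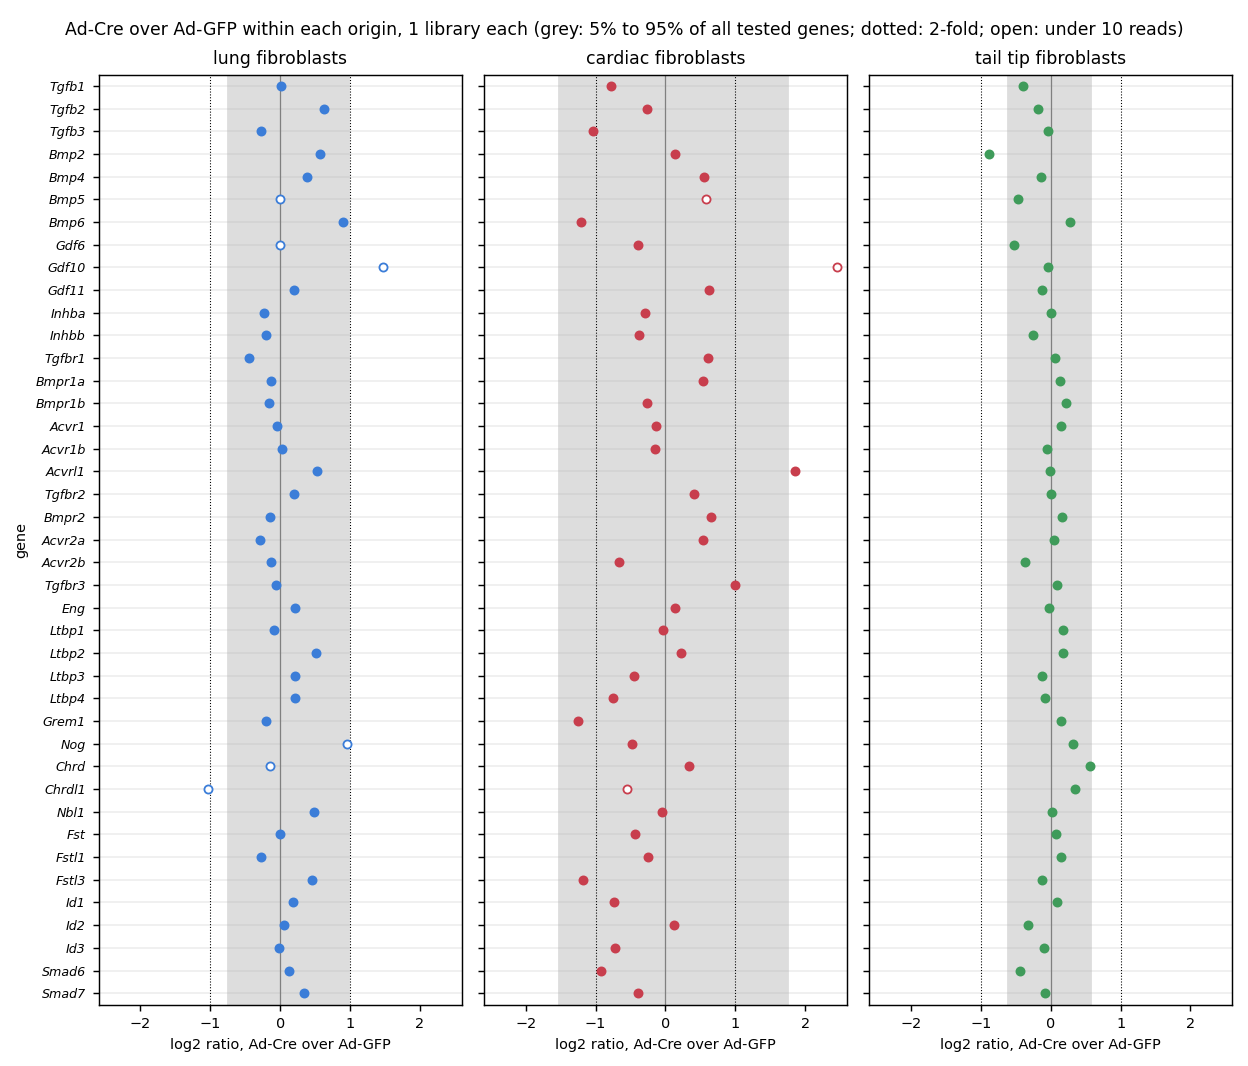
Points give the log2 ratio of Ad-Cre over Ad-GFP (prior count 2) for 41 genes within each origin, 1 library against 1, with the grey band from the 5% to the 95% quantile of all 18143 genes tested and dotted lines at 2-fold. Open points have under 10 reads in the pair. The tail tip points lie within 2-fold, and in the cardiac panel Acvrl1 and Gdf10 (0 and 9 reads) lie right of their line while Tgfb3, Bmp6, Grem1 and Fstl3 lie left.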

How the data were processed

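The authors deposited raw counts of reads for each Ensembl gene identifier. STAR 2.0.7 and build mm39 are listed, per the submitters' processing notes. No source used here names the counter, its annotation or its use of strand, so reads of overlapping antisense genes may be mixed. The labels quote a column name for each library but name a counts matrix titled on another subject. The deposited matrix holds these column names, and its columns were matched to libraries by them. Symbols came from GENCODE M21, which named 51884 of 57180 identifiers, and exon lengths (union of exons) from the same GRCm38 annotation.

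The test was that of edgeR 4.0.16 (R 4.3.3). Its filterByExpr (minimum count 10) left 18143 genes, TMM factors were 0.964 to 1.03, and robust quasi-likelihood F-tests used an additive model of origin and virus with 2 residual degrees of freedom. P-values are two-sided and Benjamini-Hochberg adjusted over all tested genes, with a threshold of 0.05. An SE is the absolute log2 fold change over the square root of F. Within an origin, ratios have exact conditional binomial 95% intervals. The fits were tested on simulated data.

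Alternatives were DESeq2 1.42.0, its size factors, library totals, limma-voom (limma 3.58.1) with sample weights, no filter, each library left out, each pair left out (virus), origin alone, 4 libraries only, and for ratios a prior count of 0.5 and a fold of 1.5. All 44 members are accounted for; further pathway genes were taken from those with the largest changes that passed, up to 4 per direction and comparison, of which examples are printed, and Smad1, Smad4 and Smad9 were named after their values were seen. The members, lists and rules were chosen with earlier results of these data known. One further pathway gene that this rule takes is not reported here.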

Additional observations from a re-analysis of the deposited data

How the results depend on the processing

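No direction of a called member turned under any alternative, and counts of members called stayed within 1.5 times for the 3 comparisons of origins: leaving out 1 library gave 21 to 29 for cardiac against lung, 18 to 32 for cardiac against tail tip and 22 to 35 for lung against tail tip. Of the called members, 17 of 24, 15 of 25 and 20 of 31 passed in each alternative that gave a value; Gdf6 was too low for lung against tail tip with only those 4 libraries. Calls lost in at least 1 alternative were Bmp2, Nog, Tgfbr1, Acvr1b, Acvr2b, Tgfbr2 and Acvr1 (cardiac against lung), Acvr2a, Fstl1, Gdf10, Id2, Inhba, Bmp6, Chrd, Nbl1, Bmpr1a and Bmp5 (cardiac against tail tip), and Gdf10, Bmp2, Grem1, Tgfbr3, Acvr1, Ltbp3, Bmp5, Fst, Tgfbr1, Acvr1b and Nog (lung against tail tip); the cause was not tested. Members not called that passed in at least 1 of 13 alternatives were Tgfb1 (7), Acvrl1 (6), Bmp7 (5), Fstl3 (3), Bmpr1a, Smad7, Bmpr2, Id1, Id3 and Ltbp4 for cardiac against lung; Ltbp3 (9), Smad6 (7), Acvrl1, Fstl3, Nog, Tgfb3, Bmp7, Fst, Gdf11, Id1, Id3 and Tgfbr1 for cardiac against tail tip; and Fstl3 (7), Acvrl1 (6), Bmpr2 (4) and Bmp7 (2) for lung against tail tip; parentheses give the number of alternatives, which is 1 or 2 where none is given. For the further pathway genes, cardiac against tail tip gave 29 to 57 calls with 1 library left out, 29 of them without the tail tip Ad-GFP library, against 44; the ranges were 35 to 52 and 36 to 56 for cardiac against lung and lung against tail tip. For Ad-Cre against Ad-GFP, 1 member (Acvrl1) passed without a filter, and 0 to 1 with 1 library left out; no other alternative called a member. Members at least 2-fold apart were 4 in lung at a prior count of 0.5, and at 1.5-fold the numbers were 5 (lung), 16 (cardiac) and 1 (tail tip) of 41, beside 19.3%, 36.8% and 10.2% of all genes tested. No paired analysis was possible because each group holds 1 library; origin is already a block of the comparison of viruses. Depth limits genes with few reads such as Bmp3, Gdf5 and Bmp5. The calls that passed least often were Acvr1 (6 of 13 alternatives), Acvr2b and Tgfbr2 (7 of 13 each) for cardiac against lung. Next came Bmp5 for cardiac against tail tip, and Acvr1b and Nog for lung against tail tip (8 of 13 each).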
